A study of Danio rerio with 6 samples.

Results

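DNA replication and S phase genes were followed through the cell types of the zebrafish eye at 48 hours post fertilisation (hpf), in order to see which retinal lineages still carried them. The set holds 37 genes, listed by function when earlier results of these data were already known. All 37 were found among the 24437 gene symbols of the files. By role, 11 of them load or open the replicative helicase or restrain its loading. Another 14 belong to the polymerases, the sliding clamp and the ligation of new strands. A further 5 supply nucleotides and 7 supply histones or maintain chromatin and DNA methylation on the new strands. One symbol, rrm2, stands for 2 gene entries, of which the first held 73.1% and the second 26.9% of its UMIs (unique molecular identifiers, each counting 1 captured transcript), and these were summed. The other 36 symbols have 1 entry each.

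Before a cell replicates its DNA, the origin recognition complex, CDC6 and CDT1 place the MCM2-7 helicase on the chromosomes, and geminin keeps CDT1 from doing so again in the same cycle. During S phase the helicase unwinds the template, PCNA holds the polymerases on it, and ribonucleotide reductase supplies the deoxynucleotides. In the fish retina, stem cells at the ciliary margin and progenitors divide, retinal ganglion cells (RGCs) are born early, and photoreceptor and horizontal cell precursors are known to divide once more after they have begun to take on their identity.

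The cells came from the eyes of F1 embryos carrying both NRE-eGFP and HS5-mCherry, in which 2 human PAX6 enhancers each drive a fluorescent protein through a minimal gata2 promoter. All embryos were kept in PTU, which stops pigment formation, from 12 hpf, and eyes of about 100 to 150 embryos were pooled for each collection. Cells were sorted by FACS into 3 mCherry-enriched libraries (cells with mCherry, alone or together with eGFP, and in 1 round of sorting with both) and 3 eGFP-enriched libraries (cells with eGFP alone). The labels do not say whether the libraries of a sort came from separate matings, so p-values measure the spread between these libraries, which may be partly technical.

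Of all barcodes, 5606 had at least 1000 genes and at most 10% mitochondrial UMIs, and they held 288733 UMIs of the 37 genes. The libraries were unequal, with 376, 218 and 597 cells in mCherry-enriched replicates 1, 2 and 3 and 2027, 85 and 2303 cells in eGFP-enriched replicates 1, 2 and 3. The median cell had 7024 UMIs. Both libraries of replicate 1 stood apart, since they held 248 of the 257 barcodes with more than 50000 UMIs. Doublets were not removed, and libraries shared at most 1 barcode, in 4 of 15 pairs. Levels are given as UMIs per 1000000 UMIs of all genes (CPM) summed over the cells of a gate in a library, for gates with at least 10 cells in that library.

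Cells were gated by marker lists that contain none of the 37 genes. The early bipolar list does hold tp53inp1, which is also among the genes of cell cycle exit read below. A gate name says which markers a cell carried and no more. The 11 retinal gates took 3523 cells (143 stem, 536 progenitor, 203 Müller, 182 newborn RGC, 519 mature RGC, 599 amacrine, 134 horizontal, 366 early bipolar, 410 late bipolar, 247 photoreceptor precursor and 184 mature photoreceptor). Another 600 cells fell in non-retinal gates and 1483 in none. Each of the 11 gates had more UMIs of its own list than any other retinal gate. Since cells entered a gate by that list, this was largely fixed in advance. Even so, early and late bipolar cells were close in the early bipolar list (16.4 against 15.2 UMIs per cell at equal depth). Precursor and mature photoreceptors were close in the precursor list (4.02 against 3.45). The early lists of these lineages were therefore weak separators, and the late lists were the stronger ones (23.5 against 4.14 and 9.80 against 1.85).

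Summed over the 37 genes, the level was highest in the stem gate (8017 ± 1521 CPM, SD, n = 3 libraries), followed by the progenitor gate (7106 ± 935, n = 4), the photoreceptor precursor gate (6623 ± 2398, n = 4) and the horizontal gate (5568 ± 1871, n = 3). A second tier was made of the Müller gate (2737 ± 295, n = 4), the newborn RGC gate (2680 ± 744, n = 4) and the mature photoreceptor gate (1972 ± 130, n = 3). The early bipolar (1480 ± 328, n = 4), late bipolar (1143 ± 689, n = 4), mature RGC (1127 ± 847, n = 6) and amacrine gates (1118 ± 827, n = 5) came last. Neighbours in this order overlapped in their ranges, except for the horizontal and the Müller gate, which did not (4102 to 7676 against 2301 to 2931). The means are over different libraries, and the order within a library could differ. In eGFP-enriched replicate 3 the stem gate (7718 CPM) lay below the progenitor (8334) and photoreceptor precursor gates (8412). In eGFP-enriched replicate 1 the horizontal gate (4925) lay above the photoreceptor precursor gate (4686). Among neurons, therefore, the photoreceptor precursor and horizontal gates had ranges that overlapped the progenitor range (6272 to 8334), and the other neuron gates did not. The horizontal overlap rested on mCherry-enriched replicate 3 (7676 CPM, 12 cells). In eGFP-enriched replicates 1 and 3 horizontal cells had 4925 and 4102 CPM and progenitors 6272 and 8334 CPM.

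**Figure D1:**
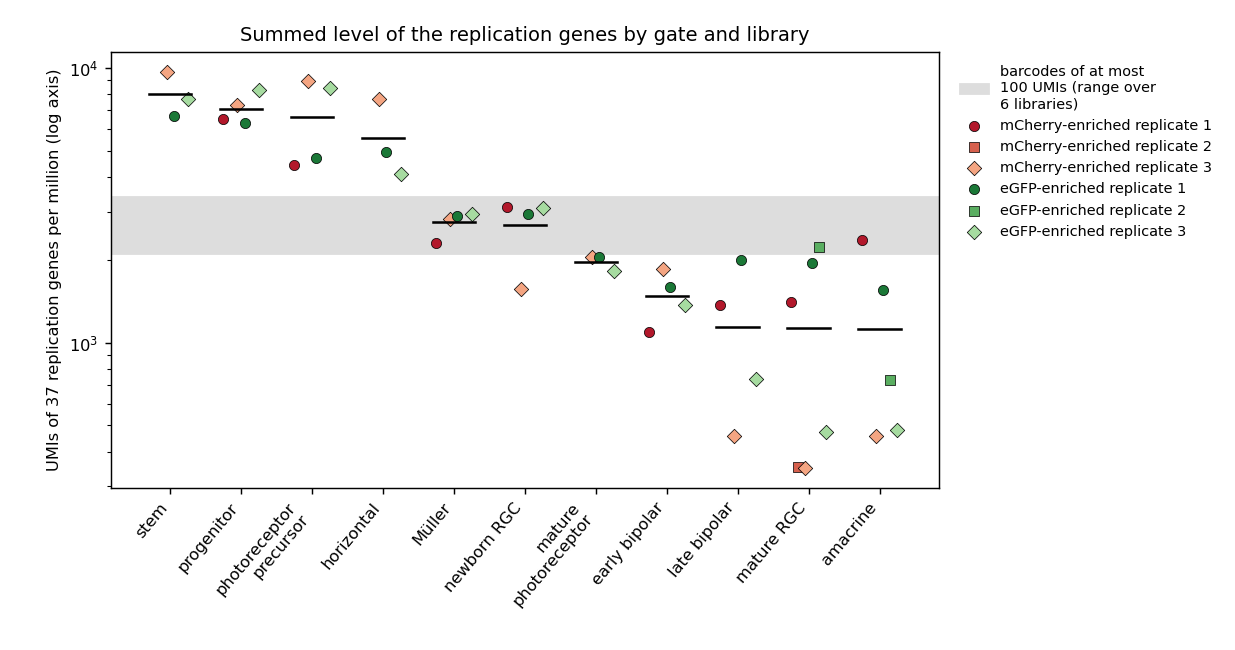
UMIs of the 37 replication genes in CPM (log axis) by gate, with a point for each library that had at least 10 cells in the gate and a bar for the mean over those libraries. The grey band is the range over 6 libraries in barcodes of at most 100 UMIs. Stem, progenitor, photoreceptor precursor and horizontal gates lie above the band in each library shown, while mature RGC, amacrine and late bipolar gates lie below it in replicate 3 of both sorts and nearer to it or within it in replicate 1.

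The level of the 37 genes in mature RGCs depended on the library. It was 1410, 354 and 351 CPM in mCherry-enriched replicates 1, 2 and 3 and 1951, 2223 and 475 CPM in eGFP-enriched replicates 1, 2 and 3, the 2223 resting on 11 cells. Amacrine cells had 2367 and 457 CPM in mCherry-enriched replicates 1 and 3 and 1549, 733 and 483 CPM in eGFP-enriched replicates 1, 2 and 3. Both gates were thus higher in replicate 1 than in replicate 3 of either sort. Without barcodes of more than 50000 UMIs, mature RGCs still had 1451 and 1432 CPM and amacrine cells 1939 and 1053 CPM in the mCherry- and eGFP-enriched libraries of replicate 1. Barcodes of at most 100 UMIs, taken as a measure of free RNA, had 2099 to 3394 CPM, with 2383 and 3094 in the libraries of replicate 1. In mCherry- and eGFP-enriched replicate 3 they had 3092 and 3394 CPM, where mature RGCs were at 351 and 475 CPM. The part of free RNA in the neuron values was not tested.

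The ratio between lineages was accordingly large in some libraries and modest in others. Photoreceptor precursors had 25.6 and 17.7 times the level of mature RGCs in mCherry- and eGFP-enriched replicate 3, and 3.14 and 2.4 times in mCherry- and eGFP-enriched replicate 1. Horizontal cells had 21.9, 8.64 and 2.52 times the mature RGC level in mCherry-enriched replicate 3, eGFP-enriched replicate 3 and eGFP-enriched replicate 1. The direction was shared by these libraries and the size was not.

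Progenitors were first compared with all 8 neuron gates together, within each library. All 37 genes were higher in progenitors (37 of 37 tested, 4 libraries, quasi-likelihood test of edgeR on the sums, Benjamini-Hochberg adjusted p under 0.05 over all genes), with a median log2 fold change of 1.69 beside -0.03 over all 9565 genes tested, of which 20.0% were called higher. The changes were alike in size, from 1.34 to 2.34. The largest were those of chaf1b (2.34 ± 0.28, SE, edgeR adjusted p = 0.00365), a subunit of the chromatin assembly factor that places histones behind the fork, cdca7a (2.27 ± 0.28), a cofactor of a chromatin remodeller, and rrm1 (2.16 ± 0.25), the large subunit of ribonucleotide reductase. The smallest were those of orc1 (1.34 ± 0.40, edgeR adjusted p = 0.0353), a subunit of the origin recognition complex with few UMIs, gins2 (1.45 ± 0.19) and prim2 (1.5 ± 0.15), of the helicase and of primase. The count was 36 or 37 without each library in turn.

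One gene of each role shows the underlying values. The gene pcna (ENSDARG00000054155), the sliding clamp, had 1001 and 1195 CPM in progenitors of mCherry-enriched replicates 1 and 3 and 1069 and 1382 CPM in those of eGFP-enriched replicates 1 and 3. Mature RGCs had 220, 21.8 and 50.1 CPM of pcna in mCherry-enriched replicates 1, 2 and 3, and 302, 257 and 57.7 CPM in eGFP-enriched replicates 1, 2 and 3. The gates did not overlap, and the lowest progenitor value was more than 3 times the highest mature RGC value.

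The gene mcm6 (ENSDARG00000057683), of the helicase ring, had 94.1 to 134 CPM in progenitors and 0 to 47.0 CPM in mature RGCs over their libraries. For rrm2, the small and rate-limiting subunit of ribonucleotide reductase, the ranges were 1208 to 1912 CPM and 29.5 to 374 CPM. For chaf1a (ENSDARG00000062152), the large subunit of the chromatin assembly factor, they were 331 to 413 CPM and 5.45 to 112 CPM. None of these ranges overlapped. In each of the genes the highest mature RGC values came from the libraries of replicate 1 or from the 11 cells of eGFP-enriched replicate 2.

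**Figure D2:**
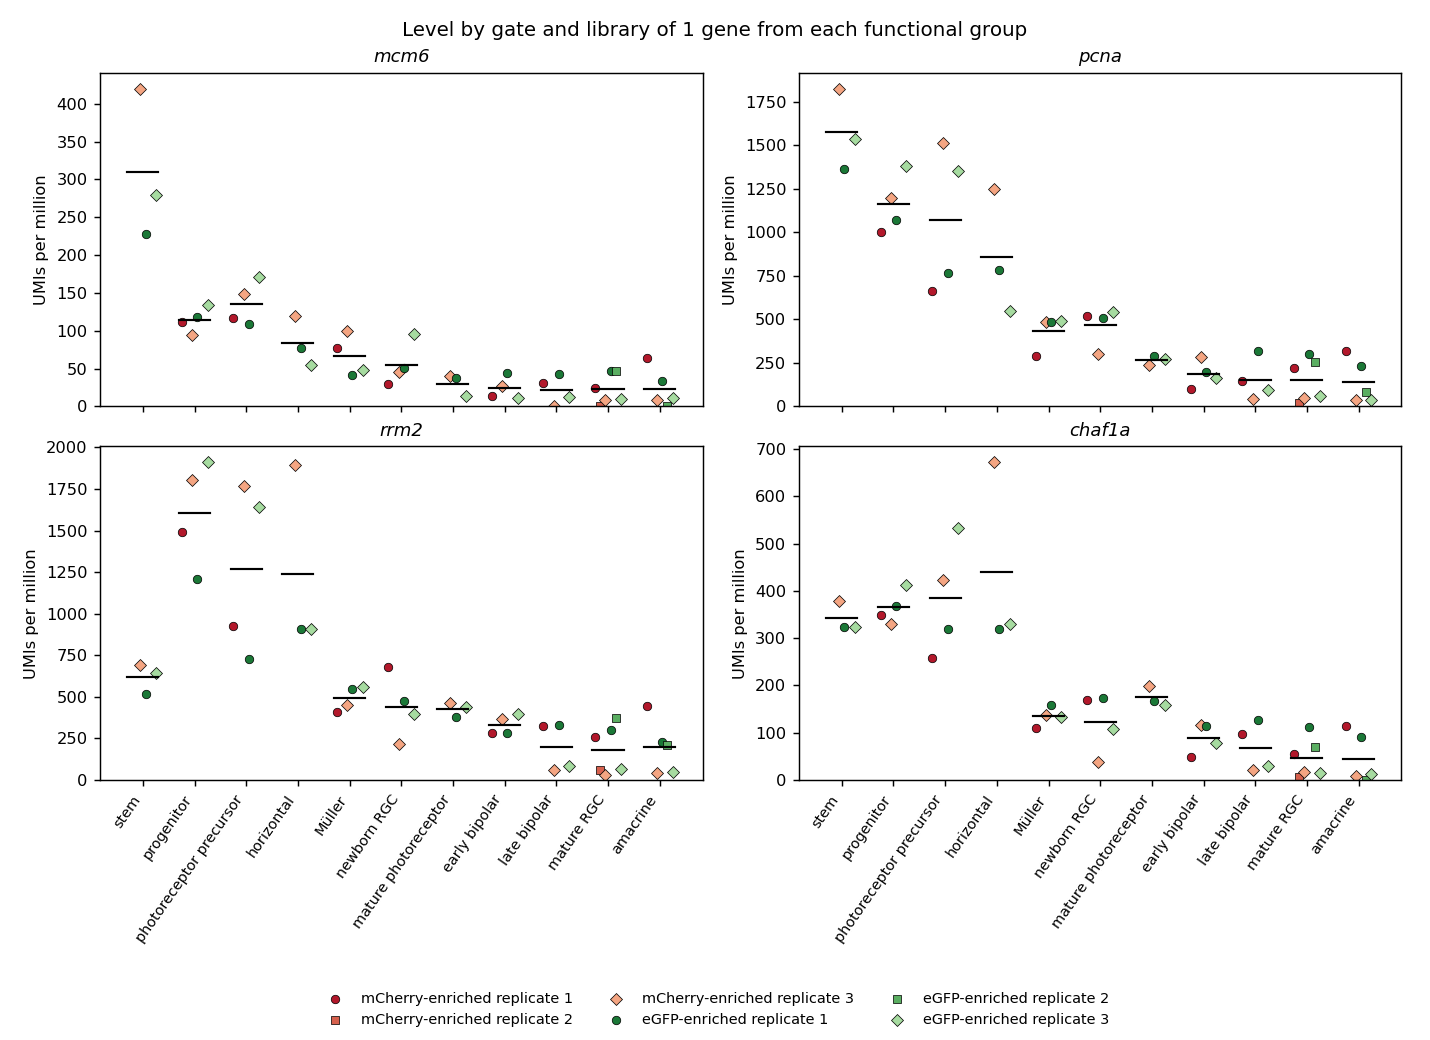
Level in CPM of mcm6, pcna, rrm2 and chaf1a, the gene of each functional group with the highest mean over retinal cells, by gate. Points are libraries with at least 10 cells in the gate and bars are means over libraries. The rrm2 panel differs from the others in that the stem gate (617 CPM) lies far below the progenitor gate (1604 CPM).

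In the stem gate all 37 genes were again higher than in neurons (37 of 37, 3 libraries), with a median log2 fold change of 2.05 beside -0.10 over 9252 genes, of which 21.6% were called higher. Here the sizes were uneven. The helicase and licensing genes had a median of 2.67 and the genes of nucleotide supply one of 1.69. The largest changes were those of cad (3.86 ± 0.46, SE, edgeR adjusted p = 0.00305), which starts pyrimidine synthesis, cdca7b (3.15 ± 0.29) and mcm3 (3.12 ± 0.33). The smallest were those of rrm2 (0.71 ± 0.18, edgeR adjusted p = 0.0249), slbp (1.1 ± 0.20), the protein that binds the stem-loop of histone messages, and prim2 (1.29 ± 0.25). Without eGFP-enriched replicate 3 the count was 12 of 37, with the median at 1.75. Over all genes, 276 were called in that setting in either direction, against 3746 with all 3 libraries.

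The stem gate was then set against the progenitor gate of the same libraries, a comparison added after the values above had been seen. Of the 37 genes, 12 were higher in the stem gate, where 19.7% of all 7620 genes were called higher, and 3 were lower, where 13.5% of all genes were called lower. The share of members called higher (12 of 37) was above the background and the share called lower (3 of 37) below it. Among those higher were 5 of the 6 MCM subunits and gins2. The largest were cad (1.70 ± 0.21, edgeR adjusted p = 0.000308), mcm6 (1.32 ± 0.21, adjusted p = 0.00117) and cdca7b (1.26 ± 0.19, adjusted p = 0.000744). The smallest called higher were pcna (0.35 ± 0.11, edgeR adjusted p = 0.0273), fen1 (0.63 ± 0.15) and uhrf1 (0.68 ± 0.19).

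The 3 genes that went against this direction were rrm2 (-1.41 ± 0.11, edgeR adjusted p = 4.12e-05), rrm1 (-0.69 ± 0.16, adjusted p = 0.00924) and slbp (-0.54 ± 0.18, adjusted p = 0.0412). The values of rrm2 were 691, 515 and 644 CPM in the stem gate of mCherry-enriched replicate 3, eGFP-enriched replicate 1 and eGFP-enriched replicate 3, and 1805, 1208 and 1912 CPM in the progenitor gate of the same libraries. The gates did not overlap for rrm2. The opposite held for mcm6, with 420, 228 and 280 CPM in the stem gate and 94.1, 118 and 134 CPM in the progenitor gate of those libraries. Again the gates did not overlap. The values of cad were 195, 100 and 121 CPM against 45.4, 42.4 and 30.8 CPM, also without overlap. Without eGFP-enriched replicate 3, of these 3 rrm2 alone stayed past the threshold (-1.37), with rrm1 at -0.56 and slbp at -0.39.

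Genes of mitosis, none of which is among the 37, went with this. All 29 mitosis genes tested were lower in the stem gate than in the progenitor gate, with a median log2 fold change of -1.47 beside -0.02 over all genes. The most lowered were prc1a (-2.15 ± 0.24, edgeR adjusted p = 0.00015) and prc1b (-2.14 ± 0.28), which bundle the microtubules of the central spindle, and ccnb3 (-1.95 ± 0.21), a B-type cyclin. Their summed level was 3492, 2313 and 1717 CPM in the stem gate and 6902, 5690 and 6701 CPM in the progenitor gate of the same 3 libraries, without overlap. Of 12 regulators of the G1 to S step, ccnd2a, a D-type cyclin, was higher in the stem gate (3.66 ± 0.58, edgeR adjusted p = 0.00113), and 5 were lower, among them ccna2 (-1.25) and e2f8 (-0.86). Among genes of cell cycle exit, cdkn1a, the p21 inhibitor of cyclin-dependent kinases, was higher (3.90 ± 0.41, edgeR adjusted p = 0.000116). In the same list 8 of 12 were lower, led by insm1a (-3.34) and gadd45gb.1 (-2.84). The stem gate thus combined higher helicase genes with lower ribonucleotide reductase and mitosis genes.

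**Figure D3:**
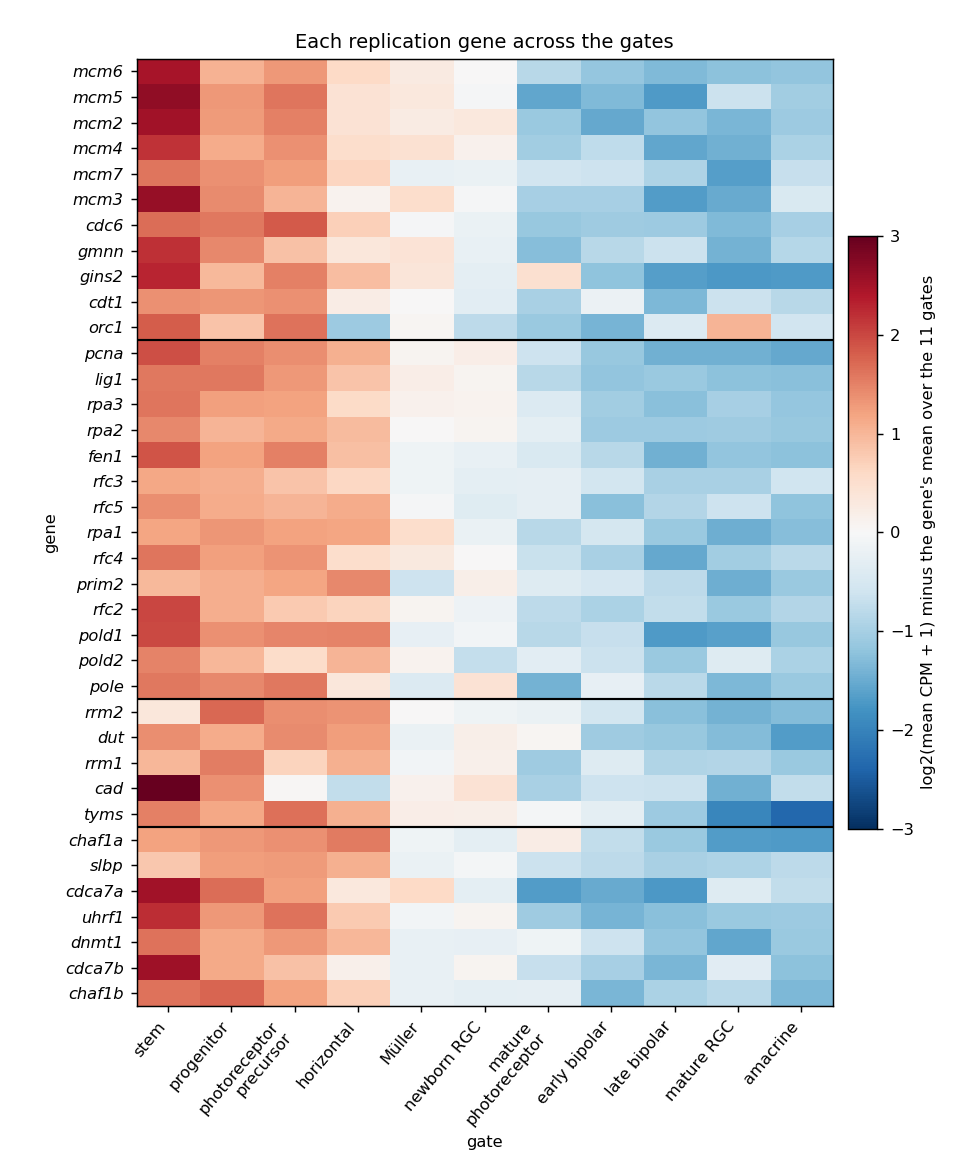
Each of the 37 genes (rows, grouped from the top as helicase and licensing, polymerase, clamp and ligation, nucleotide supply, chromatin and histone supply) across the 11 gates (columns). Colour is log2 of the mean CPM over libraries plus 1, minus the gene's mean over the gates. The mean was highest in the stem gate for 25 genes, in the photoreceptor precursor gate for 6, in the progenitor gate for 4 and in the horizontal gate for 2. The red cell of orc1 in mature RGCs rests on eGFP-enriched replicate 2 (46.8 CPM from 11 cells).

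Neuron lineages were then compared with each other, each against the other neuron gates of the same library. These 5 comparisons share cells, so that 1 lineage being high makes others low. The photoreceptor lineage, precursor and mature gates together, was higher in 34 of 37 genes (5 libraries), where 14.9% of all 7972 genes were called higher, with a median log2 fold change of 1.5 beside -0.04. The largest were tyms (2.16 ± 0.31, SE, edgeR adjusted p = 0.00708), thymidylate synthase, gins2 (2.02 ± 0.44) and orc1 (1.91 ± 0.50). The smallest past the threshold were rrm1 (0.87 ± 0.24), pold2 (1.12 ± 0.33), a subunit of polymerase delta, and mcm7 (1.18 ± 0.27). The genes gmnn, rfc2 and cad had values of 1.04, 0.91 and 0.55 and did not pass. Without eGFP-enriched replicate 3 the count was 16, and without mCherry-enriched replicate 3 it was 19. Over all genes, 960 and 1265 were called in these settings in either direction, against 2375 in the main fit.

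The horizontal lineage was higher in 17 of 36 genes tested (3 libraries), where 5.21% of all 7503 genes were called higher, with a median log2 fold change of 1.16 beside -0.06. All 36 values were positive. The largest were those of rrm1 (1.89 ± 0.25, SE, edgeR adjusted p = 0.00276), chaf1a (1.88 ± 0.29) and rrm2 (1.76 ± 0.20), and the smallest past the threshold those of rpa3 (1.00 ± 0.23), a subunit of the protein that covers single-stranded DNA, mcm4 (1.07 ± 0.28) and dnmt1 (1.15 ± 0.28), the maintenance DNA methyltransferase. By role, 4 of 5 genes of nucleotide supply and 8 of 14 of polymerase, clamp and ligation passed, and 2 of 10 of helicase and licensing. The 17 genes were also among the 34 of photoreceptors. As 34 of the 37 genes were called there, an overlap of nearly all 17 was fixed in advance. The comparisons also share cells, so no conclusion is drawn from it.

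The horizontal result rested on few libraries. The summed level was 7676, 4925 and 4102 CPM in mCherry-enriched replicate 3, eGFP-enriched replicate 1 and eGFP-enriched replicate 3, from 12, 43 and 66 cells. Mature RGCs of these libraries had 351, 1951 and 475 CPM, and the gates did not overlap. Without mCherry-enriched replicate 3 no gene of the 37 passed (median 1.14), without eGFP-enriched replicate 3 11 passed, and with at least 1500 genes per cell 1 passed, rrm2. Without barcodes of more than 50000 UMIs 27 of 33 passed.

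The other lineages lay lower. Bipolar cells were lower in 20 of 36 genes (4 libraries), where 13.3% of all 8342 genes were called lower, with a median of -0.90 beside -0.01. The most lowered were cdca7a (-1.40 ± 0.38, SE, edgeR adjusted p = 0.0265), gins2 (-1.40 ± 0.32) and uhrf1 (-1.33 ± 0.25), which brings DNMT1 to half-methylated sites. The least lowered of those called were slbp (-0.67 ± 0.17), rrm2 (-0.69 ± 0.11) and rpa2 (-0.78 ± 0.14). With at least 1500 genes per cell 2 passed, mcm2 and mcm4, and the median was -0.40. Over all genes, 1183 were called in that setting in either direction, against 2136 in the main fit.

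RGCs, newborn and mature together, were lower in 7 of 33 genes (6 libraries), where 8.48% of all 7266 genes were called lower. The median was -0.74 beside -0.05, and all 33 values were negative. The 7 genes were chaf1a (-1.55 ± 0.39, SE, edgeR adjusted p = 0.0213), rrm2 (-1.26 ± 0.34), dut (-1.04 ± 0.29), which removes dUTP, tyms (-0.97), cdc6 (-0.96), fen1 (-0.94), the flap endonuclease, and mcm4 (-0.77). No gene passed without replicate 3 of either sort.

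Amacrine cells were lower in 6 of 35 genes (5 libraries), where 5.60% of all 8184 genes were called lower. The median was -1.05 beside -0.01, and all 35 values were negative. The most lowered were tyms (-2.33 ± 0.43, SE, edgeR adjusted p = 0.0133), dut (-2.06 ± 0.46) and rrm2 (-1.88 ± 0.49, adjusted p = 0.0499), and rpa2, rpa3 and rfc4 (-1.1, -1.05 and -1) followed. The count depended on the libraries, from 1 without eGFP-enriched replicate 2 or 3, 2 without eGFP-enriched replicate 1 and 3 without mCherry-enriched replicate 3 to 25 without mCherry-enriched replicate 1. It was 24 of 32 without barcodes of more than 50000 UMIs. Over all genes, 711 were called in the main fit in either direction. The number was 563, 362 and 348 without eGFP-enriched replicates 2, 3 and 1, and 351 without mCherry-enriched replicate 3. It was 1156 without mCherry-enriched replicate 1 and 1672 without barcodes of more than 50000 UMIs.

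The other lists were read in the same comparisons, beside the shares of all genes given above. The 28 mitosis genes tested were all higher in photoreceptors, and 18 of 28 were higher in horizontal cells. In RGCs 16 of 28 were lower. In amacrine cells 2 of 28 were called lower, near the 5.60% of all genes, and in bipolar cells 2 of 28, below the 13.3% of all genes. The amacrine values were nevertheless all negative, with a median of -1.43, and 26 of 28 had an unadjusted edgeR p under 0.05. The median was -1.32 in RGCs, also with all 28 negative, and -0.39 in bipolar cells, with 27 of 28 negative. Of 27 further replication genes, 24 were higher in photoreceptors, led by dhfr (2.39), cdc7 (2.21) and gins4 (2.14), and 11 in horizontal cells. The cyclin ccnd1 was higher in photoreceptors (2.12 ± 0.26, edgeR adjusted p = 0.00667) and in horizontal cells (1.97 ± 0.26, adjusted p = 0.00278), and lower in RGCs (-2.00), amacrine (-2.10) and bipolar cells (-1.98). The p57 family gene cdkn1cb was higher in RGCs (3.79 ± 0.53) and lower in amacrine (-2.75), bipolar (-2.80) and photoreceptor cells (-2.23). It did not stand for the 12 genes of cell cycle exit tested. In RGCs 4 of the 12 were higher and 3 lower, the lower ones being btg1, btg3 and tp53inp1. Amacrine cells had 0 higher and 7 lower, bipolar cells 5 and 2, and photoreceptors 4 and 3. In horizontal cells 1 was higher, btg3, and 0 were lower. The gene btg3 was also among those higher in photoreceptors.

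**Figure D4:**
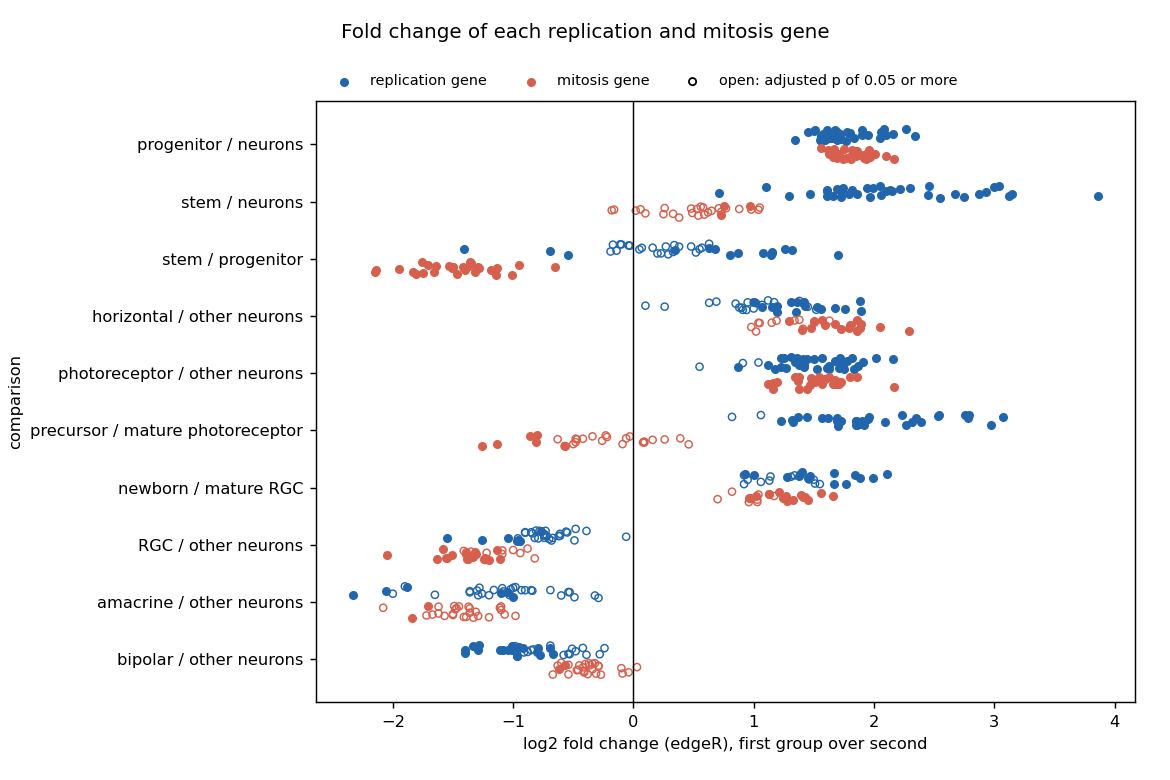
Log2 fold change by edgeR of each replication gene (blue) and each mitosis gene (red) in 10 comparisons. Filled points had an adjusted p under 0.05 over all genes tested, and positive values mean higher in the group named first. In precursor against mature photoreceptors the replication genes lie between 0.82 and 3.07 while the mitosis genes lie between -1.26 and 0.46, and in stem against progenitor the mitosis genes lie between -2.15 and -0.65.

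Within photoreceptors, the replication genes separated the gates sharply. In precursors 34 of 36 genes tested were higher than in mature cells (3 libraries), where 5.52% of all 6158 genes were called higher, with a median log2 fold change of 1.87 beside 0.02. The largest were pole (3.07 ± 0.52, SE, edgeR adjusted p = 3.5e-05), the catalytic subunit of polymerase epsilon, cdca7a (2.97 ± 0.36) and mcm2 (2.79 ± 0.29). The smallest past the threshold were prim2 (1.23 ± 0.30), rfc3 (1.32 ± 0.27), of the clamp loader, and chaf1a (1.33 ± 0.19). Summed, precursors had 8965, 4686 and 8412 CPM in mCherry-enriched replicate 3, eGFP-enriched replicate 1 and eGFP-enriched replicate 3, and mature cells had 2043, 2051 and 1822 CPM. The gates did not overlap, and the ratio was 4.39, 2.29 and 4.62 in these libraries. The count was 26 to 34 without each library in turn.

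Mitosis genes did not follow. None of 28 was higher in precursors and 6 were higher in mature cells, where 5.34% of all genes were called in that direction. The fold changes of precursor over mature were -1.26 ± 0.22 for birc5a (survivin, of the chromosomal passenger complex, edgeR adjusted p = 4.01e-05), -1.13 ± 0.28 for aurka (a spindle kinase), -0.86 for ccnb1 (cyclin B1), -0.81 for cdc20 and -0.80 for ube2c (both of anaphase-promoting ubiquitination) and -0.57 for nusap1. Their summed mitosis level was 3201, 3750 and 4116 CPM in precursors and 5620, 4410 and 4381 CPM in mature cells of the same libraries. The mature value was the higher in each library, though the ranges lay near each other. In the same comparison e2f7 (2.33) and ccnd1 (2.28 ± 0.17) were higher in precursors, as was cdkn1ca, a p57 gene (1.48 ± 0.28, edgeR adjusted p = 0.000137). Of the other genes of cell cycle exit, insm1a (1.49) and btg3 (1.25) were higher and cdkn1bb (-0.86) and tp53inp1 (-0.67) lower.

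Newborn RGCs were higher than mature RGCs in 14 of 27 genes tested (4 libraries), where 9.94% of all 5464 genes were called higher, with a median of 1.4 beside 0.02. The largest were dut (2.11 ± 0.40, SE, edgeR adjusted p = 0.00652), pcna (1.99 ± 0.40) and rrm1 (1.88 ± 0.40), and the smallest past the threshold rfc5 (0.93 ± 0.30), rfc3 (1.00 ± 0.24) and rpa3 (1.28 ± 0.40). None of the 6 helicase genes tested passed, with values of 1.06 to 1.55. Summed, newborn RGCs had 3118 and 1570 CPM in mCherry-enriched replicates 1 and 3 and 2936 and 3094 CPM in eGFP-enriched replicates 1 and 3, and mature RGCs of these libraries had 1410, 351, 1951 and 475 CPM. Newborn cells were higher in each of the 4 libraries, but the lowest newborn value lay below the highest mature value. The count was 9 without mCherry-enriched replicate 1 and 21 of 21 tested without eGFP-enriched replicate 1, with a median of 2.15, and the median was 0.75 without eGFP-enriched replicate 3. Over all genes, 789, 1318 and 999 were called in these settings in either direction, against 1294 in the main fit. The inhibitor cdkn1cb was higher in newborn RGCs (5.47 ± 0.47, edgeR adjusted p = 0.000373), and 16 of 23 mitosis genes were.

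These genes gave no called difference between early and late bipolar cells. Of 18 values 17 were positive (higher in early cells), with a median log2 fold change of 0.32 beside -0.01 over all genes. None of 18 genes tested passed (4 libraries), 1 had an unadjusted p under 0.05, and 0 passed in DESeq2 either, where 9.87% of all 4682 genes were called by edgeR in either direction. Without eGFP-enriched replicate 1, 2 of 7 tested passed (rrm1 and rrm2), where 286 of all genes were called. Müller cells likewise had none of 36 genes past the threshold against neurons (4 libraries, 1 with an unadjusted p under 0.05, 0 in DESeq2), where 8.21% of all 8637 genes were called in either direction. Of the 36 values 30 were positive, with a median of 0.20 beside -0.05. The neuron side included the photoreceptor precursor and horizontal gates, with means of 6623 and 5568 CPM. The Müller mean of 2737 CPM lay below these and above the means of mature RGCs (1127) and amacrine cells (1118). The summed Müller level of 2301 to 2931 CPM lay within the range of barcodes of at most 100 UMIs. Without barcodes of more than 50000 UMIs, 4 genes passed as higher (lig1, mcm2, mcm4 and pcna, named after their values were seen). In that setting 1369 of all genes were called in either direction, against 709 in the main fit.

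A mean over a gate can come from few cells with much or many with little, so cells were also counted one by one. Each cell was thinned to 1500 UMIs, which every cell reached, and called high with at least 10 UMIs of the 37 genes. By this count 47.6% of stem-gated cells were high (68 of 143, 95% exact binomial interval 39.1 to 56.1%), 43.7% of photoreceptor precursors (108 of 247, 37.4 to 50.2%), 41.4% of progenitors (222 of 536, 37.2 to 45.7%) and 29.9% of horizontal cells (40 of 134, 22.3 to 38.4%). Müller cells had 11.3% (7.32 to 16.5%), newborn RGCs 8.79% (5.11 to 13.9%) and mature photoreceptors 5.98% (3.02 to 10.4%). The remaining gates had few, at 2.73% of early bipolar, 1.73% of mature RGCs (0.796 to 3.27%), 1.22% of late bipolar and 1.17% of amacrine cells. Amacrine cells were nevertheless high in 10.3% of 29 cells of mCherry-enriched replicate 1 and in 10% of 10 cells of eGFP-enriched replicate 2. Mature RGCs stand here for cells that should lack these messages. The limit of 10 was set after the values of mature RGC-gated cells had been seen, as a number that few of them reach. Their low share was therefore built in. The intervals cover counting error only. Without thinning the same count of 10 UMIs was reached by 95.8% of stem-gated, 85.4% of precursor and 18.7% of mature RGC-gated cells, whose median depths were 17589, 8769 and 7083 UMIs.

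High cells carried many of the genes at once. At 1500 UMIs, a median of 10 different genes of the 37 was detected in high precursors, 9.5 in high progenitors and 8.5 in high horizontal cells, while other cells of the photoreceptor precursor, progenitor and horizontal gates had medians of 3, 3 and 1. Since the genes chose the cells, this is a description of them. By library, precursors were high in 41.2 and 67.9% of cells of mCherry-enriched replicates 1 and 3 and in 25 and 54.2% of eGFP-enriched replicates 1 and 3. Mature RGCs were high in 0% of cells in each mCherry-enriched library and in 3.54, 9.09 and 0.513% in eGFP-enriched replicates 1, 2 and 3. The gates did not overlap over libraries. As the limit had been chosen so that few mature RGCs reach it, no conclusion is drawn from this.

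**Figure D5:**
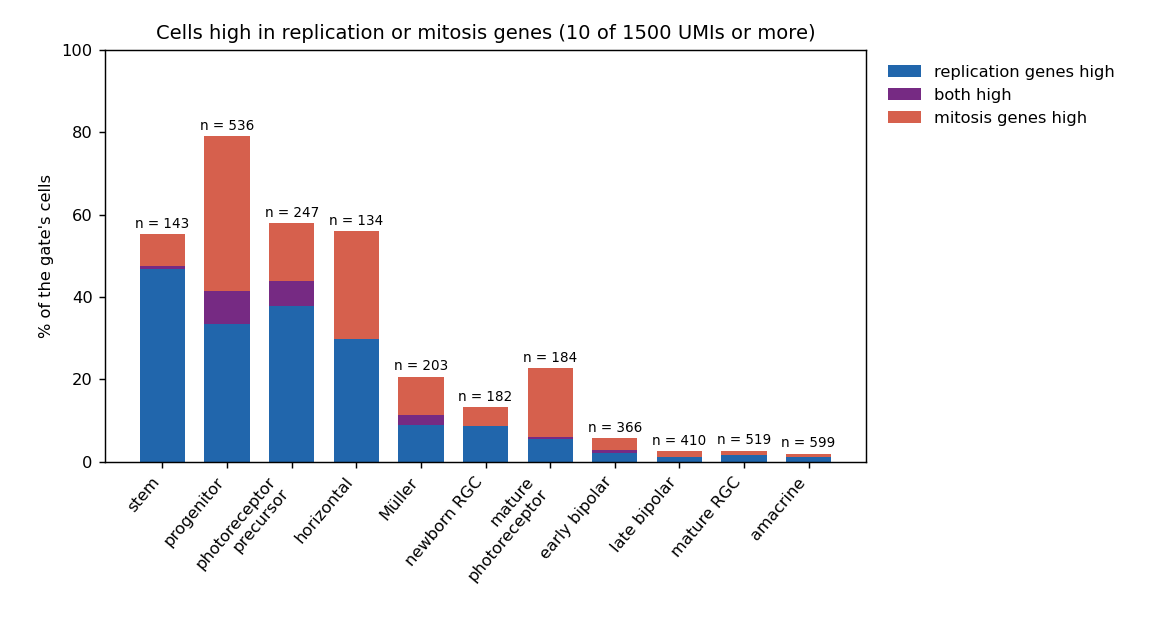
Share of the cells of each gate that had at least 10 of 1500 UMIs in the 37 replication genes alone (blue), in the mitosis genes alone (red) or in both (purple), over all libraries, with the number of cells above each bar. Progenitors divide into 33.4% replication, 8.02% both and 37.7% mitosis, and horizontal cells into 29.9% and 26.1% with no cell in both. Of mature photoreceptors 16.8% were high in mitosis alone, 5.43% in replication alone and 77.2% in neither.

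The mitosis list, which the choice of genes did not use, was counted in the same way. Among progenitors 45.7% of cells were high in mitosis UMIs (41.4 to 50%), and 79.1% were high in 1 list or the other. Among horizontal cells 26.1% were high in mitosis UMIs (18.9 to 34.4%). No horizontal cell was high in both lists, 0 of 134 cells, which allows a share of up to 2.24%. Stem-gated cells were high in mitosis in 8.39% (4.41 to 14.2%), although 47.6% of them were high in replication genes. In photoreceptors the mitosis share was 20.2% in precursors (15.4 to 25.8%) and 17.4% in mature cells (12.2 to 23.7%), where the replication share had been 43.7% and 5.98%. By library it was 17.6 and 25% in precursors of mCherry-enriched replicates 1 and 3, and 18 and 19.8% in those of eGFP-enriched replicates 1 and 3. Mature cells had 20, 17.5 and 15.2% in mCherry-enriched replicate 3 and eGFP-enriched replicates 1 and 3, so the ranges overlapped. Mature RGCs were high in mitosis in 1.16% and amacrine cells in 0.835%.

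In the 4 gates richest in replication genes, cells high in them had fewer mitosis UMIs than the other cells of the gate. In progenitors high in replication genes the mean was 6.54, 5.40, 6.43 and 5.72 mitosis UMIs in mCherry-enriched replicates 1 and 3 and eGFP-enriched replicates 1 and 3, while other progenitors of these libraries had 12.3, 14.3, 12.5 and 17.1. Horizontal cells high in replication genes had 3.93 and 2.88 mitosis UMIs in eGFP-enriched replicates 1 and 3, against 6.64 and 8.10 in the others. Precursors had 4.8 and 3.56 against 6.17 and 7.91 in these libraries. The stem gate had 2.35 and 1.13 in high cells against 3.74 and 5.24 in the others of eGFP-enriched replicates 1 and 3. The Müller gate went the other way, with 5.8 against 1.58 in eGFP-enriched replicate 3, the one library with at least 10 cells of both kinds. In the other 6 retinal gates no library had 10 cells of both kinds, and over all libraries the median number of mitosis UMIs was the higher in their high cells, for example 5 against 2 in mature photoreceptors and 2.5 against 1 in newborn RGCs.

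Gate markers were read in the high cells to see how much of their gate's list they carried, although the gate itself had asked for that list. Precursors high in replication genes had 4.08 UMIs of the precursor list per cell and the cells high in neither list 4.04, with 1.09 and 1.00 for six7, a cone regulator, and 0.833 and 0.760 for thrb, the thyroid hormone receptor beta of red cones. Their UMIs of progenitor markers were few, 0.537 per cell against 4.55 in progenitors high in replication genes. Precursors high in mitosis and not in replication genes had more UMIs of mature markers, with 1.29 for tulp1a and 0.829 for rcvrn2 per cell (35 cells). Those high in replication genes had 0.241 and 0.102 (108 cells). The precursors high in mitosis also had more UMIs of progenitor markers, at 1.17 per cell. The value was 0.537 in those high in replication genes and 0.548 in those high in neither list. Precursors high in replication genes were not deeper than the rest, with median depths of 8460 and 9545 UMIs.

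Horizontal cells high in replication genes carried less of their list, as did high cells of the other gates read, except precursors. They had 2.12 UMIs of horizontal markers per cell (40 cells), against 6.43 in those high in mitosis (35 cells) and 5.05 in those high in neither (59 cells). By library the value was 1.33 against 3.04 in all other horizontal cells of eGFP-enriched replicate 1 and 3.25 against 7.30 in those of eGFP-enriched replicate 3. Progenitor markers were at 0.850 per cell in them, against 0.2 in those high in mitosis and 0.475 in those high in neither. The median depth of those high in replication genes was 11746 UMIs against 8894 in the rest. Müller-gated cells that were high in replication had 23.1 UMIs of Müller markers (23 cells) against 69.8 in those high in neither list. Newborn RGCs high in replication genes (16 cells) had 5.5 UMIs of their list against 8.85 in those high in neither (158 cells). Their progenitor markers were at 1.5 against 0.646 per cell. High mature photoreceptors (11 cells) had 3.18 UMIs of their own list against 10.7 in those high in neither. High early bipolar cells (10 cells) had 11.8 against 16.8. The values were 4.18 against 5.41 in the stem gate and 4.55 against 5.2 in progenitors.

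The sorts were compared over all cells outside the non-retinal gates, 3 libraries against 3. None of the 37 genes passed (edgeR), 1 had an unadjusted p under 0.05 and DESeq2 called 0, where 0.00850% of all 11766 genes, 1 gene, was called. The summed level was 3611, 2706 and 4153 CPM in mCherry-enriched replicates 1, 2 and 3 and 3720, 5100 and 3997 CPM in eGFP-enriched replicates 1, 2 and 3, with means of 3490 ± 731 and 4272 ± 730 (SD, n = 3). The sorts overlapped. The median log2 fold change was -0.30 beside 0.01, with 32 of 37 values negative, and the eGFP-enriched library with the highest level, replicate 2, had 69 such cells. Whether a difference between gates depended on the sort was fitted for 8 of the comparisons, and no gene of the 37 passed (2 unadjusted p under 0.05 over all 8), nor did any other gene in these fits.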

How the data were processed

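The authors deposited UMI count matrices made with Cell Ranger on GRCz11 (version 6.1.2 in the submitters' processing notes, another version in the file headers). Those notes also name Seurat 4. Barcodes with at least 1000 genes and at most 10% mitochondrial UMIs were kept, with no doublet removal. A cell entered the gate whose marker list scored highest (score at least 0.5, lead at least 0.25, at least 3 markers detected). Marker lists came from the study, which chose them on these samples, or from general knowledge, and the gate limits were set after values had been seen. Counts were summed per gate and library (at least 10 cells) and tested within libraries with edgeR 4.0.16 in R 4.3.3. DESeq2 1.42.0 was an alternative. Cells were thinned to 1500 UMIs for counts of cells, with numpy 2.4.6, and exact intervals came from scipy 1.17.1. Named genes were the 3 largest and the 3 smallest called changes per comparison and the leading gene of each role. For the other lists the rule was the 3 largest, which was not kept in every comparison. Any other gene was named after its values were seen. The 37 genes, the other lists and the comparisons were chosen with earlier results of these data known. Other alternatives were other cell filters, a stricter gate, no filter on low counts, no scaling beyond the UMI sums, and leaving out each library. The script was tested on simulated data. Promoter sequences were not analysed here.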

Additional observations from a re-analysis of the deposited data

Results flagged for a closer look

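Signal of the 37 genes was present outside the retinal gates. Barcodes of at most 100 UMIs, which no comparison used, had a mean of 2813 CPM over 6 libraries. Of cells in other gates, 19.1% of mesenchyme-gated cells had at least 10 of 1500 UMIs in these genes, as had 13.7% of erythroid-gated, 7.07% of pigment-gated and 8% of epidermis-gated cells. Among cells in no gate the share was 17.9%. Mature RGCs, measured in the same way, had 1.73%, a share kept low by the choice of the limit.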

How the results depend on the processing

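No called value of a named gene changed sign. Of 1002 alternative values for 81 named values (a gene in a comparison), 850 kept direction and side of the threshold and 152 kept direction but missed it. Leaving out 1 library at a time gave 12 to 37 called genes for stem against neurons, 36 to 37 for progenitors, 0 to 0 for Müller cells and for the sorts, 0 to 9 for RGCs, 1 to 25 for amacrine, 0 to 21 for horizontal, 14 to 19 for bipolar and 16 to 33 for photoreceptor cells, 9 to 21 for newborn RGCs, 0 to 2 for early bipolar cells, 26 to 34 for photoreceptor precursors, and 8 to 12 higher and 1 to 3 lower for stem against progenitor. For RGCs the count was 14 with DESeq2, 12 at 500 genes per cell, 25 with no filter on low counts, 16 with the stricter gate and 3 of 6 tested after thinning. For amacrine cells it was 14 with DESeq2, 11 at 500 genes, 1 at 5% mitochondrial UMIs, 28 with no filter and 1 with the stricter gate. At 1500 genes per cell it was 1 for horizontal, 2 for bipolar and 1 for early bipolar cells, which gave 3 at 500 genes, 1 with no filter and 1 with the stricter gate. Thinning, which leaves fewer genes to test, gave 12 for bipolar, 12 of 12 for photoreceptors, 3 of 3 for newborn RGCs (27 with no filter), 12 of 12 for precursors and 7 for stem over progenitor. Chosen after seeing the data, a limit of 50000 UMIs gave 4 for Müller, 24 for amacrine and 27 for horizontal cells. Where no gene was called, the median over the genes tested changed sign, for early bipolar cells from 0.32 to -0.21 with the stricter gate, where pcna was lower, and to -0.08 without eGFP-enriched replicate 3, and for Müller cells from 0.20 to -0.39 with the stricter gate. At 9 UMIs the share of high newborn RGCs was 13.2%. With the replicate block the sorts gave 0 of the 37 genes and 12 over all genes against 1. Same-numbered libraries had correlations of deviations of 0.174, 0.0936 and 0.108, not all above 0.1, and the labels do not say whether a number marks a shared round of sorting, so they were not treated as pairs. The comparison of stem with progenitor was also added after seeing the data. Gates with 3 libraries and few cells limit precision. In several of these settings fewer of all genes were called as well, as in horizontal cells without mCherry-enriched replicate 3 (0 against 575).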

Other observations

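The 1483 cells that met no gate were mixed in their cell cycle genes. Of them 16% were high in replication genes alone, 12.7% in mitosis genes alone and 1.96% in both, and the share high in replication ranged from 9.3 to 34.6% over libraries. Mesenchyme-gated cells (199 cells) were high in replication genes alone in 19.1% and in mitosis genes alone in 14.1%, with no cell in both. Pigment-gated cells (99 cells) were high in replication genes in 7.07% and 1 cell was high in mitosis genes.

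Outside the 37 genes, rrm2b, a ribonucleotide reductase subunit of resting and damaged cells, went the other way from rrm2 and was lower in progenitors than in neurons (-1.02 ± 0.28, SE, edgeR adjusted p = 0.0273), while tk1, thymidine kinase of dividing cells, was higher (2.23 ± 0.20, edgeR adjusted p = 0.00335). Against progenitors, 5 of 31 further replication genes were higher in the stem gate and 4 lower, shares near those of all genes (19.7% and 13.5%), with a median of 0.02. The stem gate was lower in tk1 (-1.54 ± 0.27) and dck (-1.73 ± 0.22), both kinases of nucleotide salvage, and higher in orc2 (1.73 ± 0.30) and orc3 (1.37 ± 0.27), of the origin recognition complex.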
